A study of Rattus norvegicus with 6 samples.

Results

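The genes described here are 38 genes of glycolysis and of the hypoxia response, named in a list and found by their gene symbol among the 18923 genes of the deposited files. They comprise 17 glycolytic enzymes (with the lactate dehydrogenases), 4 glucose and lactate transporters, 2 kinases of the PFKFB family, 4 pyruvate dehydrogenase kinases, 4 genes of the HIF pathway itself and 7 other genes known as HIF targets. Of the 38, 37 were found. Gapdh, the gene of glyceraldehyde-3-phosphate dehydrogenase, had no row under its symbol, so its expression is not analysed here and only its promoter entry is used.

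RNA was sequenced from primary chondrocytes, the cells of cartilage, of 24-h-old female Sprague-Dawley rats of wild-type genotype, used at passage 1 or 2. The 3 CON samples were kept for 24 h in high-glucose DMEM with fetal bovine serum and antibiotics, and the 3 RA samples received the same medium with 1 µM all-trans retinoic acid for the same time. The control labels name no vehicle, and the study describes the samples of a group as independent without saying whether they came from separate animals. The p-values measure the spread between these samples. All samples are cells in serum and high glucose, and no sample had low oxygen in its label.

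Glycolysis splits glucose into pyruvate in the cytosol, and lactate dehydrogenase turns pyruvate into lactate. Cartilage has no blood vessels, and chondrocytes are known for drawing most of their ATP from glycolysis. HIF-1α (gene Hif1a) and HIF-2α (gene Epas1) are transcription factors that prolyl hydroxylases mark for breakdown when oxygen is present. In low oxygen they escape, bind short DNA sequences called hypoxia response elements, and raise the transcription of glycolytic enzymes, glucose transporters and genes of mitophagy and vessel growth. Retinoic acid acts through nuclear receptors of its own.

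The authors deposited raw counts of reads per gene and FPKM, which are reads per kilobase of gene, scaled to the sample's total count, and serve here for levels. Between 29370025 and 38007486 reads were counted per sample. RA was compared with CON by edgeR's quasi-likelihood test on the counts of 13438 genes that passed a filter on low counts, 36 of the 38 members among them. The log2 fold change of RA over CON is written log2FC. A gene was called where its Benjamini-Hochberg adjusted p was below 0.05, and a called gene was a DEG where its log2FC also lay beyond 0.58 in either direction. CON sample 1 stood apart from the other samples. A chi-square of its counts against those of the other CON samples came to 39.6 and 63.3 per degree of freedom, while every other pair of samples within a group gave 6.53 to 8.25. It was the lowest of all 6 samples for 10 of the 16 enzymes tested, for 6 of the 8 enzymes called below, and for 6 of the 20 other members tested. Members whose call changed without this sample are given with and without it. Among the other pathway genes, the number of calls is given both ways. Of 12 chondrocyte marker genes, 11 were called and lower in RA, and their summed level ran from 30897 to 41401 CPM (counts scaled to the size of the library) in CON and from 19003 to 20736.5 in RA. Markers of 12 macrophage, 7 endothelial, 9 skeletal muscle and 5 red blood cell genes found in the files summed to 22.9 to 25.8, 9.05 to 12.3, 16.5 to 19.3 and 0.496 to 1.37 CPM in CON and to 27.5 to 30.1, 9.65 to 10.4, 17.7 to 20.5 and 1.2 to 1.42 CPM in RA. The 9 fibroblast and perichondrium markers found, which chondrocytes in culture partly share, summed to 19685 to 26742 CPM in CON and 25476 to 27061 in RA. Within these lists, Myod1 (log2FC 1.93, adjusted p = 0.0142, at most 0.833 CPM) and Pdgfra (0.44, adjusted p = 0.00155) rose, while Tnnt3 (-1.004, adjusted p = 0.0214), Postn (-1.28, adjusted p = 2.31e-04) and Dcn (-0.41, adjusted p = 0.0378) fell. Ptprc, Adgre1, Cdh5 and Myh3 had at most 0.136 CPM in any sample, and Emcn was at 0 in all. Most of the macrophage, endothelial and muscle sums came from Cd14 (20.2 to 26.8 CPM), Egfl7 (7.68 to 11.8 CPM) and Des (9.64 to 15.5 CPM). Cd14 and Des were higher in every RA sample than in every CON sample, Egfl7 overlapped, and none of them was called. The part that other cells play in the results below was not tested, and in bulk RNA fewer cells of a type cannot be told apart from less RNA per cell.

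Several glycolytic enzymes were higher in RA by a small margin. The difference between enzymes and other members was itself not tested. Of the 16 enzymes tested, 8 were called, and each of the 8 was higher in RA, by 1.15 to 1.38 times. Of the 20 other members tested, 0 were called by edgeR, with 7 at an unadjusted p below 0.05 and 3 called by DESeq2. Over all genes tested, 9.82% were called, 5.31% upward and 4.5% downward. None of the members was a DEG, a status that 4.96% of all genes had (2.67% upward, 2.29% downward). The CPM of the groups did not overlap for 12 enzymes higher and 1 lower in RA, for 5 other members higher and 2 lower, and for 31.9% of all genes (16.8% higher, 15.1% lower). At an unadjusted p below 0.05, 11 enzymes were higher and 1 was lower, and of the other members 5 were higher and 2 lower, beside 24% of all genes (12.3% higher, 11.7% lower). The median log2FC was 0.23 over the enzymes, 0.059 over the other members and -0.0057 over all genes. Without CON sample 1 it was 0.20 over the enzymes and 0.0017 over the other members. Of the enzymes, 13 of 16 lay above 0, and these 13 stayed above 0 under all 15 alternatives of the analysis. Among all genes 48.9% lay above 0. The members had been listed with earlier results of these data known, so these counts describe them and are no independent test.

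**Figure D1:**
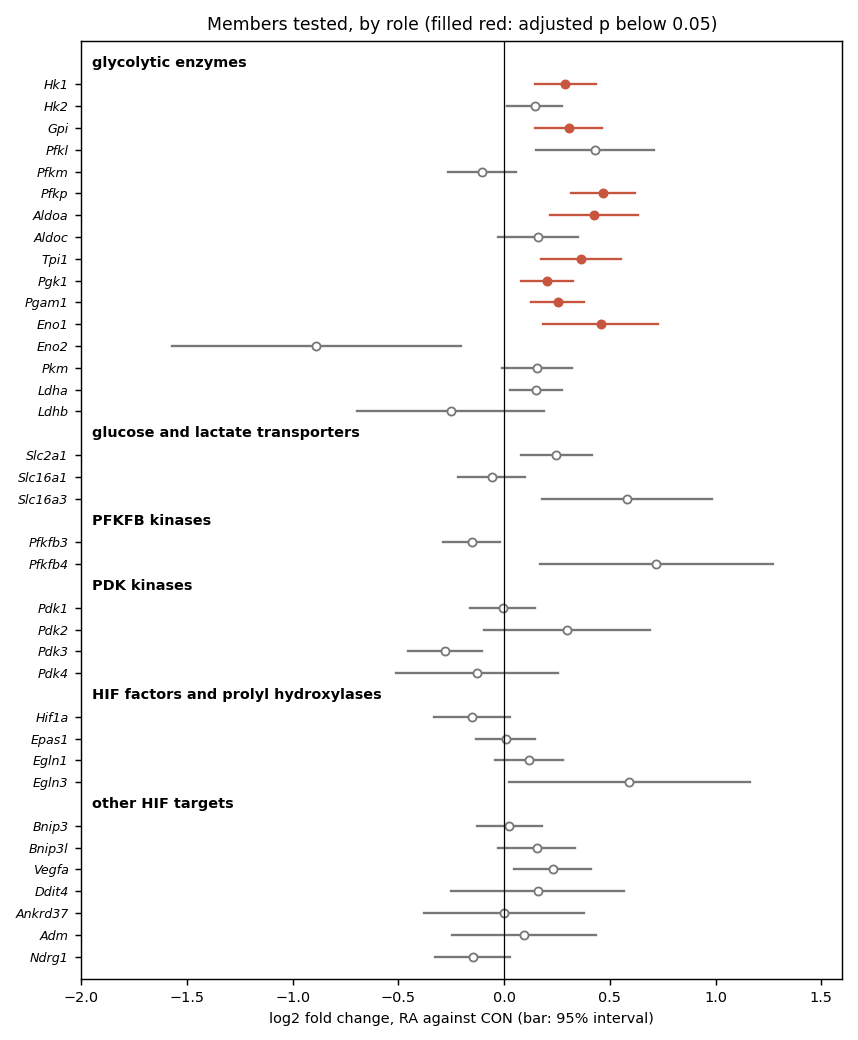
Log2 fold change of RA against CON (x axis) with its 95% interval for each of the 36 members tested (y axis), grouped by role. Filled red points mark the 8 members with an adjusted p below 0.05 in edgeR's test, all of them glycolytic enzymes, and open grey points the members that were not called.

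With a sample removed, these calls often went while the directions stayed. Removal of CON sample 2 left Pfkp as the only member called, beside 5.3% of all genes, and so did removal of RA sample 1, 2 or 3, beside 5.08%, 4.99% and 4.83% of all genes. Without CON sample 1, 16 members were called, 10 of them enzymes, beside 16.5% of all genes. Without CON sample 3, 8 members were called, 7 of them enzymes, beside 9.67% of all genes. With all samples, the share of all genes called was 9.85% with RLE or upper-quartile factors, 9.91% with total counts only, 12.9% with DESeq2, 11.9% with a replicate block, 9.15% and 9.26% with limma on FPKM at pseudocounts of 0.1 and 1, 7.12% without a filter and 9.99% with a mean FPKM of at least 1.

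At the entry to the pathway, Hk1 and Hk2 encode the hexokinases that trap glucose in the cell as its phosphate. Hk1 (ENSRNOG00000046891) had 40.3, 41.3 and 43.2 FPKM in CON samples 1, 2 and 3 and 49.3, 52.1 and 52.5 for the RA cultures in the same order. The groups did not overlap, and Hk1 rose in RA with a log2FC of 0.29 ± 0.0633 (SE, adjusted p = 0.0236). For Hk2 the values were 17.6, 16.5 and 17.2 FPKM in CON and 19.4, 18.9 and 18.9 in RA, again without overlap, and a log2FC of 0.14 ± 0.0573 (SE, adjusted p = 0.173) was not a call. Without CON sample 1, Hk2 was called at 0.16 (adjusted p = 0.0479, range over all alternatives 0.0479 to 0.391). Gpi, which converts glucose phosphate into fructose phosphate, had 146, 157 and 166 FPKM in CON and 190.2, 192 and 203 in RA. Every RA sample was above every CON sample, and Gpi rose with a log2FC of 0.31 ± 0.069 (SE, adjusted p = 0.027).

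Phosphofructokinase commits sugar to glycolysis, and rat cells make it from the liver, muscle and platelet subunits Pfkl, Pfkm and Pfkp. Pfkp (ENSRNOG00000017163) had 29.99, 27.8 and 28.3 FPKM in CON samples 1, 2 and 3 and 38.5, 39.3 and 42.3 for the RA cultures in the same order. It showed the largest rise of the enzymes called, 1.38 times, with a log2FC of 0.47 ± 0.0669 (SE, adjusted p = 0.00337), and it was the only member that stayed called whichever sample was removed, when its log2FC lay between 0.42 and 0.50. Pfkl had 37.7, 50.3 and 52.97 FPKM in CON and 61.9, 63.4 and 66.5 in RA, and CON sample 1 was the lowest. Its log2FC of 0.43 was not a call (adjusted p = 0.0645). It was one with DESeq2, without a filter, with a replicate block, without CON sample 3 and, at 0.29, without CON sample 1 (adjusted p = 0.00351, range over all alternatives 0.00351 to 0.216). Pfkm had 22.7, 21.5 and 23.2 FPKM in CON and 20.3, 20.7 and 22.4 in RA, groups that overlapped, and a log2FC of -0.10 ± 0.0698 (SE, adjusted p = 0.411) was not a call and became -0.068 without RA sample 1.

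Aldolase cleaves the sugar into triose phosphates, which triosephosphate isomerase interconverts. Aldoa, the main aldolase here, had 412, 503 and 520.4 FPKM in CON samples 1, 2 and 3 and 629.8, 663 and 652 for the RA cultures in the same order. All RA samples lay above all CON samples, CON sample 1 was lowest, and Aldoa rose with a log2FC of 0.42 ± 0.0901 (SE, adjusted p = 0.0208). Its log2FC stood at 0.32 once CON sample 1 was removed (adjusted p = 2.62e-04, range over all alternatives 2.62e-04 to 0.1). Aldoc, the aldolase typical of brain, had 10.2, 10.8 and 11.1 FPKM in CON and 12.1, 11.5 and 12.6 in RA, with a log2FC of 0.16 ± 0.0826 (SE, adjusted p = 0.287) and no call. Tpi1 had 9.81, 9.39 and 9.42 FPKM in CON and 12.2, 11.9 and 13.02 in RA and rose with a log2FC of 0.36 ± 0.0835 (SE, adjusted p = 0.0287). The FPKM of Tpi1 was far below that of its neighbours in the pathway, and how reads shared with near-identical gene copies were assigned is not given in the sources used here, so that its level is uncertain.

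The later steps of the pathway yield ATP. Pgk1, the phosphoglycerate kinase that makes the first of it, had 353, 371 and 369 FPKM in CON samples 1, 2 and 3 and 413, 419.5 and 436 for the RA cultures in the same order. It rose by the smallest margin of the 8 called genes, with a log2FC of 0.20 ± 0.0533 (SE, adjusted p = 0.0492), a value close to the threshold that 9 of the 15 alternatives put above it. Pgam1, a phosphoglycerate mutase, had 355, 379 and 382 FPKM in CON and 439.7, 446 and 457 in RA and rose with a log2FC of 0.25 ± 0.0552 (SE, adjusted p = 0.0233). Eno1, the common enolase and one of the most abundant members, had 641, 861 and 904 FPKM in CON and 1079.8, 1130.4 and 1124 in RA. In CON sample 1 it was far below the other samples, and the rise of 0.46 (standard error 0.118, adjusted p = 0.0472) became 0.32 without that sample (adjusted p = 2.04e-04, range over all alternatives 2.04e-04 to 0.161).

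**Figure D2:**
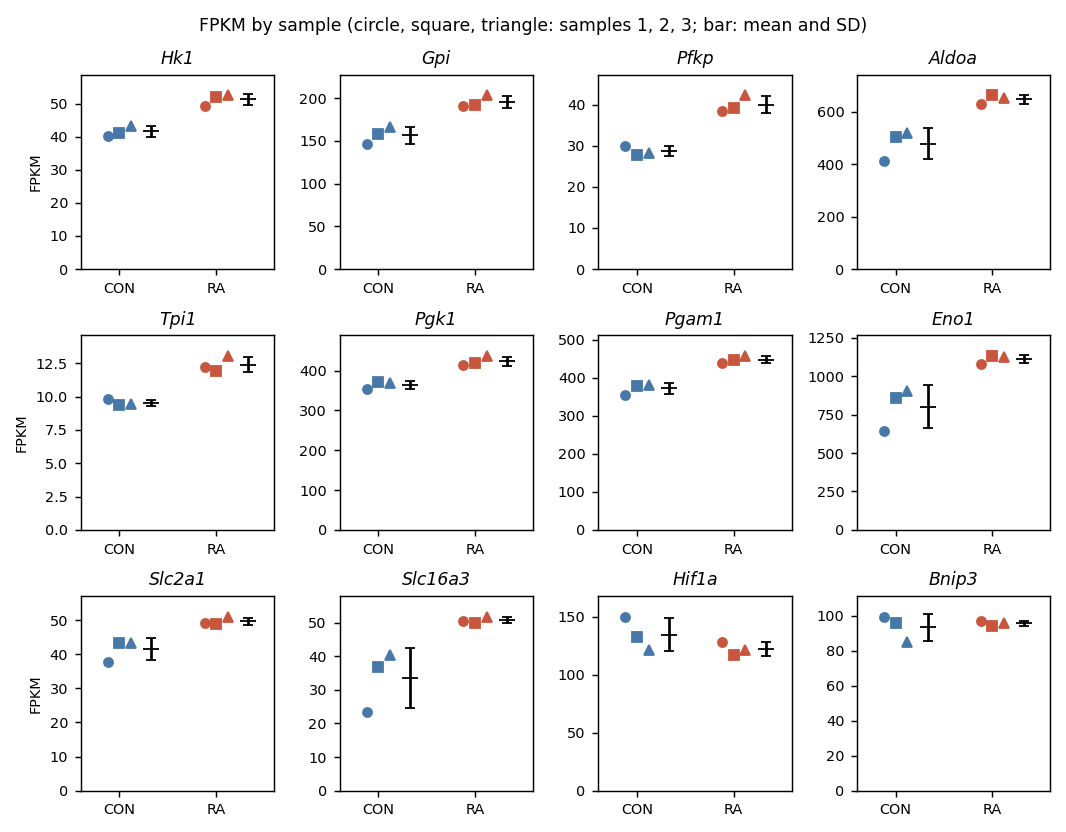
FPKM (y axis, from 0) of the 8 called enzymes and of Slc2a1, Slc16a3, Hif1a and Bnip3 in the 3 CON (blue) and 3 RA (red) samples, with the mean and SD of each group in black. The groups are apart for every called enzyme and for Slc2a1 and Slc16a3, CON sample 1 (blue circle) is the lowest sample for Hk1, Gpi, Aldoa, Pgk1, Pgam1, Eno1, Slc2a1 and Slc16a3, and the groups overlap for Hif1a and Bnip3.

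Pkm, which encodes the muscle-type pyruvate kinase, had the highest mean FPKM of all members over the 6 samples, 888, 1015 and 1056 FPKM in CON and 1074, 1122 and 1132 in RA, where Eno1 was about level with it. Its groups were apart in FPKM but overlapped in CPM scaled by TMM, and a log2FC of 0.16 ± 0.0725 (SE, adjusted p = 0.235) was not a call and became 0.083 without CON sample 1. Ldha, the lactate dehydrogenase subunit typical of glycolytic tissue, had 756, 776 and 793 FPKM in CON samples 1, 2 and 3 and 834, 879 and 892 for the RA cultures in the same order. The RA samples were all above the CON samples, yet a log2FC of 0.15 ± 0.0533 (SE, adjusted p = 0.128) was not a call, and the 95% interval of the log2FC ran from 0.029 to 0.27. Ldhb, the subunit typical of heart, was at a mean FPKM of 4.40 ± 0.681 for CON and 3.73 ± 0.749 for RA (SD, 3 samples per group), with a log2FC of -0.25 that became -0.11 once CON sample 3 was removed, and -0.098 or -0.39 on removal of RA sample 1 or 3. Eno2, the neuronal enolase, was at a mean FPKM of 0.564 ± 0.0934 for CON and 0.306 ± 0.0887 for RA (SD, 3 samples per group). It was lower in all 3 RA samples than in all 3 CON samples, with a log2FC of -0.89 ± 0.298 (SE, adjusted p = 0.111), which was no call.

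The share of each isoform in its family does not depend on the scaling between samples. These shares were computed after the values had been seen and carry no test. Pfkm made up 25.1%, 21.6% and 22.2% of the summed FPKM of the 3 phosphofructokinase genes in CON samples 1, 2 and 3, and 16.8%, 16.8% and 17.04% after RA. The share of Eno2 in Eno1 and Eno2 was 0.0705% ± 0.00622 in CON and 0.0276% ± 0.00804 in RA (SD, 3 samples per group). Ldhb accounted for 0.564% ± 0.0754 of Ldha and Ldhb in CON and 0.426% ± 0.0716 in RA, and Aldoc for 2.20% ± 0.182 of Aldoa and Aldoc in CON and 1.83% ± 0.109 in RA (SD, 3 samples per group). The groups did not overlap for any of these 4 shares. Pfkp, by contrast, held 33.2% of the phosphofructokinase message in CON sample 1, 27.9% and 27.1% in the other CON samples and 31.8% to 32.2% in RA, so that its groups overlapped.

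**Figure D3:**
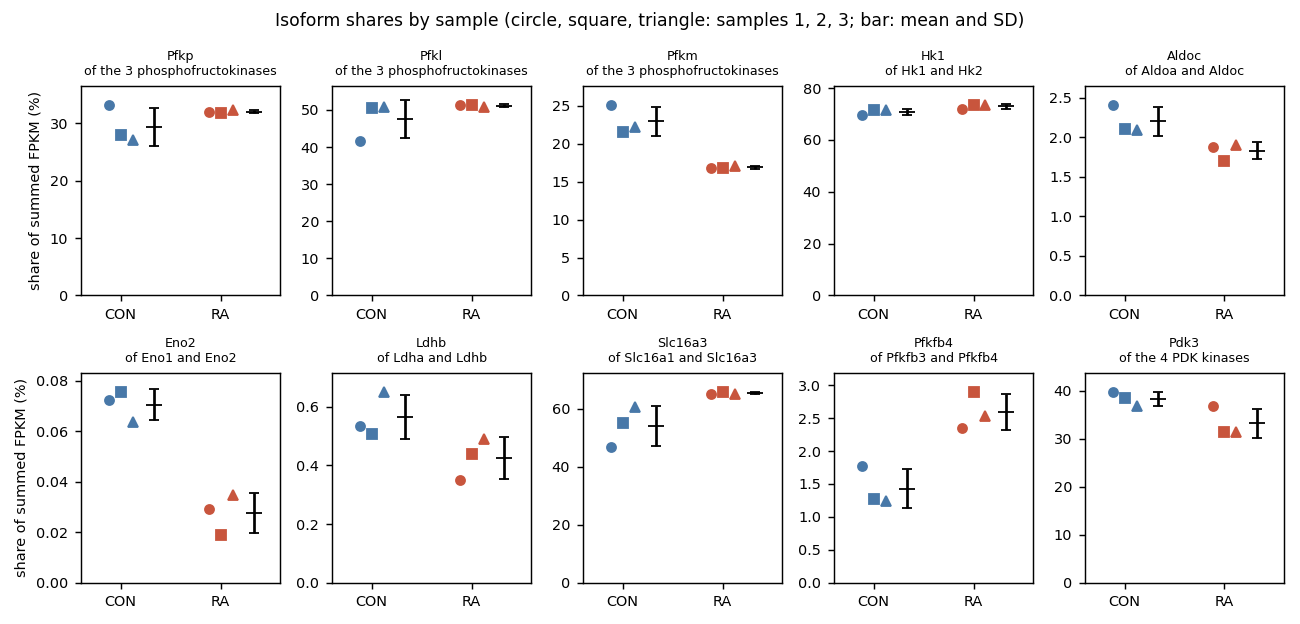
Share of 1 isoform in the summed FPKM of its family (y axis, percent, from 0) in the 3 CON (blue) and 3 RA (red) samples, with the mean and SD of each group in black. The shares of Pfkm, Aldoc, Eno2, Ldhb and Pdk3 are lower in every RA sample than in every CON sample, those of Pfkl, Hk1, Slc16a3 and Pfkfb4 are higher, and that of Pfkp overlaps.

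Glucose enters by facilitated carriers, and lactate leaves by monocarboxylate carriers. Slc2a1, the glucose carrier GLUT1 and a known HIF target, had 37.7, 43.4 and 43.3 FPKM in CON samples 1, 2 and 3 and 49.1, 48.9 and 50.9 for the RA cultures in the same order. Its groups did not overlap, and a log2FC of 0.25 ± 0.0732 (SE, adjusted p = 0.0752) was not a call, with a 95% interval from 0.08 to 0.41. It was a call with DESeq2, with a replicate block and, at 0.18, without CON sample 1 (adjusted p = 0.0252, range over all alternatives 0.0252 to 0.26). Slc16a3, the lactate exporter MCT4, had 23.4, 36.8 and 40.4 FPKM in CON and 50.5, 50.001 and 51.6 in RA. CON sample 1 was lowest by a wide margin and the log2FC was 0.58 (standard error 0.175, adjusted p = 0.0813), without a call. Slc16a3 was a call with DESeq2, without a filter, with a replicate block, without CON sample 3 and, at 0.37, without CON sample 1 (adjusted p = 8.61e-04, range over all alternatives 8.61e-04 to 0.224). Slc16a1, the carrier MCT1, was at a mean FPKM of 27.7 ± 2.06 for CON and 26.8 ± 0.76 for RA (SD, 3 samples per group), with a log2FC of -0.058 that became -0.0021 without CON sample 2. Slc16a3 made up 46.7%, 55.0% and 60.5% of these 2 carriers in CON samples 1, 2 and 3 and 65.1%, 65.8% and 65.3% after RA. Slc2a3, the carrier GLUT3, was too low to be tested, with 0 to 3 reads per sample.

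The PFKFB enzymes set the level of fructose 2,6-bisphosphate, which activates phosphofructokinase. Pfkfb3, the abundant one, had 46.7, 42.7 and 44.01 FPKM in CON and 39.6, 40.7 and 40.7 in RA. It was lower in every RA sample than in every CON sample, with a log2FC of -0.15 ± 0.0591 (SE, adjusted p = 0.162) and no call. Pfkfb4 was scarce, at a mean FPKM of 0.648 ± 0.168 for CON and 1.07 ± 0.131 for RA (SD, 3 samples per group), and higher in every RA sample, with a log2FC of 0.72 ± 0.241 (SE, adjusted p = 0.111) and no call. Without CON sample 1, Pfkfb4 was called at 0.94 (adjusted p = 0.023, range over all alternatives 0.023 to 0.328).

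Pyruvate dehydrogenase kinases shut off the entry of pyruvate into mitochondria. Pdk1, the member known as a HIF target, was at a mean FPKM of 22.9 ± 0.467 for CON and 22.997 ± 0.971 for RA, and its log2FC was -0.0064 with a 95% interval from -0.16 to 0.15 (SD, 3 samples per group). Pdk3 had 20.1, 18.8 and 18.8 FPKM in CON and 17.5, 15.6 and 14.97 in RA. It was lower in all 3 RA samples by its CPM, with a log2FC of -0.28 ± 0.0756 (SE, adjusted p = 0.0553), just short of a call. The 5 of 15 alternatives that made it one included the fit without CON sample 1, at -0.25 (adjusted p = 0.0269). Pdk4, the starvation-responsive kinase, had 2.48, 2.44 and 2.26 FPKM in CON and 1.82, 2.38 and 2.42 in RA, groups that overlapped and a log2FC of -0.13 (adjusted p = 0.685, 95% interval -0.51 to 0.26) that became -4.7e-04 without RA sample 1 and -0.20 without RA sample 3. Pdk2 was at a mean FPKM of 5.59 ± 1.14 for CON and 6.96 ± 0.702 for RA (SD, 3 samples per group) with overlapping groups and a log2FC of 0.30 that became 0.20 without CON sample 1 and 0.49 without CON sample 3.

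The HIF factors themselves were not called. Hif1a was highest in CON sample 1, with 149.7, 132 and 121 FPKM in CON samples 1, 2 and 3 and 128, 117 and 121 for the RA cultures in the same order. Its groups overlapped, and the log2FC was -0.15 (adjusted p = 0.28, 95% interval -0.33 to 0.026), or -0.072 without CON sample 1. Epas1 had 18.9, 20.2 and 20.5 FPKM in CON and 20.03, 20.2 and 20.2 in RA and a log2FC of 0.0079 (adjusted p = 0.951, 95% interval -0.13 to 0.15). HIF proteins are controlled mainly by their breakdown, which RNA levels do not measure. Egln1, the main prolyl hydroxylase, was at a mean FPKM of 35.5 ± 2.01 for CON and 38.9 ± 0.553 for RA (SD, 3 samples per group), with a log2FC of 0.12 and no call. Egln3, a hydroxylase that HIF itself induces, was scarce, with 0.751, 0.529 and 0.542 FPKM in CON and 0.849, 0.737 and 1.18 in RA, and a log2FC of 0.59 ± 0.248 (SE, adjusted p = 0.192) was not a call and became 0.37 without RA sample 3.

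Of the 7 other HIF targets, 0 were called in edgeR's test with all samples, and 1 had an unadjusted p below 0.05, beside 9.82% and 24% of all genes. That gene was Vegfa, the vessel growth factor, with 37.1, 38.3 and 31.7 FPKM in CON and 44.99, 40.4 and 41.1 in RA. Its groups did not overlap and a log2FC of 0.23 ± 0.0796 (SE, adjusted p = 0.122) was no call, though it was one at 0.26 without CON sample 1 (adjusted p = 0.0329, range over all alternatives 0.0329 to 0.325). Bnip3, a mitophagy receptor, had 99.3, 95.8 and 84.9 FPKM in CON and 97.1, 94.2 and 95.98 in RA and a log2FC of 0.025 (adjusted p = 0.852, 95% interval -0.13 to 0.18). Its relative Bnip3l was at a mean FPKM of 27.9 ± 2.50 for CON and 31.3 ± 2.02 for RA (SD, 3 samples per group), with a log2FC of 0.15 that was a call, at 0.22, only without CON sample 1 (adjusted p = 0.0209, range over all alternatives 0.0209 to 0.547). Ddit4, an inhibitor of mTORC1 induced by stress and low oxygen, had 15.8, 26.96 and 25.6 FPKM in CON and 24.5, 26.8 and 25.7 in RA. CON sample 1 was the lowest and the log2FC of 0.16 (adjusted p = 0.632) turned to -0.049 without it. Ankrd37, Adm (the peptide hormone adrenomedullin) and Ndrg1 had log2FCs of 0.0015, 0.093 and -0.15, with overlapping groups. The values of Pdk1, Epas1, Bnip3, Ankrd37 and Adm changed sign with 1 or another sample removed.

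The levels can also be summed over genes in each sample. The 16 enzymes together took 6973, 7939.6 and 8373 CPM in CON samples 1, 2 and 3 and 9039, 9492 and 9592 CPM after RA. The RA mean was 1.21 times the CON mean, and 1.15 times without CON sample 1. The 21 other members found together took 1739, 1712 and 1664 CPM in CON and 1739, 1679.8 and 1723 CPM in RA, with a ratio of means of 1.01. In the enzyme sum the few most abundant genes weigh most, and the difference between the 2 sums was not tested. The enzyme sum was lowest in CON sample 1, where the summed chondrocyte markers were also lowest among the CON samples.

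**Figure D4:**
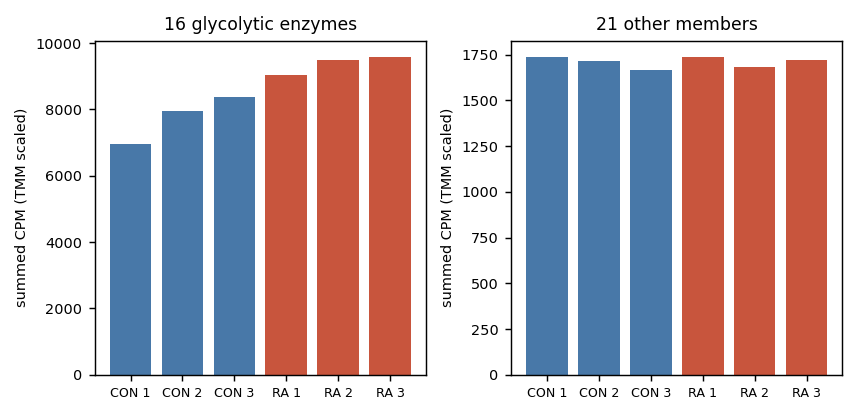
Summed CPM, scaled by TMM (y axes, from 0), of the 16 glycolytic enzymes found (left) and of the 21 other members (right) in each CON (blue) and RA (red) sample (x axis). The enzyme sum is higher in every RA sample than in every CON sample, from 6973 CPM in CON sample 1 to 9592 CPM in RA sample 3, and the sums of the other members overlap.

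Hypoxia response elements contain the letters ACGTG or GCGTG, and these were looked for on both strands in the 250 bases before the gene start, as given by RefSeq on the rat assembly GRCr8, to show whether enzymes and other members differ in this feature. The overlapping matches of a palindrome such as CACGTG were counted on each strand. Entries were found for 34 members, some with more than 1 start, in all 39 promoters; Pgk1, Slc2a3, Bnip3l and Ndrg1 were not matched. At least 1 match was present in 13 of 20 enzyme promoters (65%), that of Gapdh, which has no expression value here, among them, in 11 of 19 promoters of other members (57.9%) and in 36.7% of all 33469 promoters. The promoters differ in base composition, with a median GC content of 63% for the enzymes, 64.4% for the other members and 51.2% for all, and the part of GC content in these shares was not tested. The promoters of Pfkp, called in every fit, and of Bnip3, a HIF target with a log2FC near 0, are shown with the matches in capitals, Pfkp on the plus strand at chr17:68639563-68639812 and Bnip3 on the minus strand at chr1:203154963-203155212.
Pfkp: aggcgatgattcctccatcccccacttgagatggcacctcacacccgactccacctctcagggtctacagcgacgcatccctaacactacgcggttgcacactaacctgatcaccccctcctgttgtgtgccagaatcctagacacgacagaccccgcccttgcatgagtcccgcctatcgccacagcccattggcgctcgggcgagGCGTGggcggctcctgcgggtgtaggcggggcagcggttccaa
Bnip3: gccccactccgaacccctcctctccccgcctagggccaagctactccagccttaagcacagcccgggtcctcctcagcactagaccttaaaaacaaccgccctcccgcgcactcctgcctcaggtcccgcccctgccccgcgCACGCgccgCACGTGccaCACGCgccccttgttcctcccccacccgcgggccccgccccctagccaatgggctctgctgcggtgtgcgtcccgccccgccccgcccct

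In Pfkp the single match began 43 bases before the start, and in Bnip3 the 4 matches began between 108 and 90 bases before it. For 2 further called enzymes and 2 further HIF targets without a call, 1 match is shown with 10 bases on each side, Aldoa (in 1 of its 3 promoters; the other 2 had no match) at chr1:190836955-190836979 (minus strand), Pgam1 at chr1:250673027-250673051 (plus strand), Ddit4 at chr20:28437089-28437113 (minus strand) and Ankrd37 at chr16:53001475-53001499 (plus strand).
Aldoa: tggctcgagtCACGTcctagcgggg
Pgam1: tgccgggtagCACGCgggtaccttt
Ddit4: cctggaggggGCGTGgtctcgtcgg
Ankrd37: tccgggctacACGTGtcactgtttg

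The letters occurred in promoters of called and of uncalled members and were missing from others of both kinds. No match was found for the called enzymes Gpi and Tpi1 or for Hk2, Pkm, Slc16a3, Pfkfb4, Pdk4, Epas1, Egln3, Vegfa and Adm, which were not called. A direct repeat of the retinoic acid response element type, with half-sites AGGTCA or AGTTCA and 5 bases between them, was found in 0 of the 39 member promoters and in 10 of all 33469 (0.0299%). A match is only a run of letters in this window, and elements farther away were not looked for.

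Other genes of the same pathways, from 3 lists of 81 names, gave 70 tested genes of which 4 were called, or 5.71%, beside 9.82% over all genes. Under their listed names, 77 were found. Hkdc1, Rcor2, Car12 and Car9 (listed beside Ca9, which was found) had no row. The paper lists CA12 among the genes lowered by RA, and it is not counted here. Without CON sample 1, 11 were called, beside 16.5% of all genes. With DESeq2 on all samples 7 were called, beside 12.9%. Hk3, a hexokinase typical of blood cells, had 0.825, 1.15 and 0.923 FPKM in CON samples 1, 2 and 3 and 2.37, 2.41 and 2.30 for the RA cultures in the same order. It was scarce, and it rose 2.42 times with a log2FC of 1.28 ± 0.154 (SE, adjusted p = 0.00141), a DEG that stayed called whichever sample was removed. The summed macrophage markers, mostly Cd14, were also higher in every RA sample. Of the 4 macrophage markers tested, 3 had a log2FC above 0, among them Cd68 (0.27) and Csf1r (0.91), 1 lay below 0, and 0 were called. Ptprc stayed at or below 0.136 CPM. The part of macrophage RNA in the Hk3 result was not tested. No other gene of the list on glycolysis and sugar entry was called among the 24 tested, in edgeR's test with all samples. Lox, the collagen cross-linking enzyme lysyl oxidase and a known HIF target, was abundant, with 308, 293 and 282 FPKM in CON and 203, 192 and 185 in RA. It fell in RA with a log2FC of -0.62 ± 0.0548 (SE, adjusted p = 2.76e-04), and was also a DEG. Bhlhe40, a transcriptional repressor induced by HIF, had 19.98, 21.2 and 21.9 FPKM in CON and 28.1, 26.98 and 26.4 in RA and rose with a log2FC of 0.36 ± 0.0658 (SE, adjusted p = 0.0111). Ca9, the gene of the carbonic anhydrase used as a marker of low oxygen, had 43.6, 42.6 and 45.6 FPKM in CON and 34.3, 35.9 and 37.5 in RA and fell with a log2FC of -0.30 ± 0.0667 (SE, adjusted p = 0.0237). Bhlhe40 lost its call on removal of CON sample 2 or of any RA sample (adjusted p over all alternatives 2.62e-04 to 0.0616), and Ca9 on removal of any sample but CON sample 1 (up to 0.114). The 3 genes called in this list of HIF machinery and targets thus went in both directions, 1 higher and 2 lower. The 8 glycolytic enzymes called above were all higher. The 12 genes that carry pyruvate into mitochondrial metabolism had 0 calls in edgeR's test with all samples, 2 at an unadjusted p below 0.05 (24% of all genes), and a median log2FC of -0.074.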

How the data were processed

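Poly(A) RNA of 3 CON and 3 RA samples was sequenced by the study. For each sample the authors deposited raw counts of reads per gene and, beside them, FPKM values; their ratio showed that FPKM is scaled by gene length and total count only. The submitters' processing notes name HISAT2, HTSeq 0.13.5 and the rat assembly Rnor_6.0; options and strand setting are not given in the sources used here. Groups came from the sample titles.

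Counts were filtered with filterByExpr (minimum count of 10), normalized by TMM and tested with edgeR 4.0.16 in R 4.3.3 (glmQLFit and glmQLFTest, all 6 samples, no covariate). Standard errors were derived from the F statistic. A count of 0 allows up to 3 reads, 0.0789 to 0.102 CPM, counting error only. The script was tested on simulated data, where it called 42% of genes changed by a log2FC of 0.5 and 79% of those changed by 1. A gene without a call may thus have changed. DESeq2 1.42.0, limma 3.58.1 on log2(FPKM + 0.1) and log2(FPKM + 1), other scalings and filters, a replicate block and leaving out each sample were the alternatives.

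Members, lists, call rules and the rule for named genes (full values for every called member and for Ldha, Pgk1, Slc2a1, Pdk4, Hif1a, Epas1, Vegfa, Bnip3, Egln3 and Ddit4, and the called genes of largest change in each other pathway list) were chosen with earlier results of these data known. The sample titles do not say whether replicate numbers pair the samples, and the test treated them as unpaired.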

Additional observations from a re-analysis of the deposited data

How the results depend on the processing

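The 8 member calls became 12 with DESeq2 and 12 with the replicate number as a block, 0 as DEGs and 19 at an unadjusted p below 0.05, and ran from 1 to 16 with each sample left out. The enzyme calls ran from 1 to 10 with each sample left out and were 0 as DEGs. Calls among the other members were 1 with upper-quartile factors, without a filter and with a mean FPKM of at least 1, 3 with DESeq2 and with the replicate block, 7 at an unadjusted p below 0.05, and 0 to 6 with each sample left out. Calls among the other pathway genes were 7 with DESeq2, 2 as DEGs, 19 at an unadjusted p below 0.05 and 2 to 11 with each sample left out. All called genes numbered 1319, against 667 as DEGs, 3225 at an unadjusted p below 0.05 and 657 to 2242 with each sample left out. The median log2 fold change ran from 0.20 to 0.25 over the enzymes and from 0.0017 to 0.088 over the other members with each sample left out. Correlations of same-numbered samples were 0.093, -0.012 and 0.012. With 3 samples per group they cannot settle whether the numbers pair samples. The replicate block gave 1595 calls in all.

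Of 537 member values under the alternatives, 461 kept direction and call, 37 lost the call, 22 gained it and 17 changed sign, all 17 in 6 genes that were never called. Pdk1 was 0.0064 with total counts only, 0.0058 and 0.0056 in the limma fits, 0.011 without CON sample 3 and 0.030 without RA sample 1, and -0.041 to 0.030 over removed samples. Epas1 was -0.0019 with upper-quartile factors and -0.030 without CON sample 1 (up to 0.040 with another sample removed). Ankrd37 was -0.0089 with upper-quartile factors, -1.3e-04 with DESeq2, -2.8e-04 with a mean FPKM of at least 1, -0.0019 with the block and -0.022, -0.020 and -0.089 without CON samples 1 and 2 and RA sample 1 (up to 0.059 without RA sample 2). With each sample left out, Bnip3 ran from -0.030 (without CON sample 3) to 0.069, Ddit4 from -0.049 (without CON sample 1) to 0.29 and Adm from -0.035 (without RA sample 3) to 0.18. The cause was not tested. Scalings moved the median of all genes by less than 0.1. The low counts of Eno2, Pfkfb4 and Egln3 limit what can be seen of them.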
